A study of Mus musculus with 10 samples.

Results

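Complement genes were followed in the retina of rd10 mice, a model of retinitis pigmentosa in which a mutation of Pde6b, whose product is part of the phosphodiesterase of rods, leads to their loss. The set was a list of 9 genes looked up by symbol among the 11702 genes of the deposited gene table, and all 9 were found and passed the filter on low counts in every comparison. They are C1qa, C1qb and C1qc, which encode the chains of the recognition molecule C1q, C3 and C4b, which encode the proteins that are cleaved and deposited on targets, and the regulators Cfi, Serping1, Cd59a and C1qbp. Poly(A) RNA of the retina of female mice was sequenced at P36 in 3 groups: WT DMSO (libraries W1, W2, W3 and W4), rd10 DMSO (D1, D2 and D3) and rd10 mice given halofantrine, written HAL (H1, H2 and H3). Mice received 1 μL into the vitreous at P10 and again at P24, of the vehicle DMSO or of 20 μM halofantrine, an antimalarial drug. The control groups thus carry both the injections and the vehicle. The rd10 mice were bred from the strain B6.CXB1-Pde6brd10/J, whereas the sources used here do not name the strain of the WT mice or say whether they were littermates. W1 to W4, D1, D2 and H1 belong to batch 1 and D3, H2 and H3 to batch 2, as the labels name them, so no WT library was in batch 2. The library titles also carry set names, which are not explained. No WT library shares a set name with an rd10 library, and W4 differs in it from W1 to W3. In batch 2 the set name of D3 differs from that of H2 and H3. Genotype and set, and within batch 2 treatment and set, thus cannot be told apart. Nothing in the labels says whether a library held 1 or both retinas of a mouse, and p-values below measure the spread between these libraries.

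Complement is a cascade of plasma and tissue proteins. In the classical pathway C1q binds a target and its associated proteases cleave C4 and C2, which leads to cleavage of C3, deposition of C3 fragments, release of small attractant peptides and, at the end, a pore in the membrane. In brain and retina C1q is known as a product of microglia, C3 and C4 are known as products of glia under stress, and tagged material is taken up by microglia through the receptor that Itgam and Itgb2 encode.

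One library went against its label, which bears on every comparison with WT. Pde6b measured 2699, 2850 and 2855 CPM (counts scaled to a common library size) in W1, W2 and W3 and 93.1 in the library labelled W4, against 125 to 387 in the rd10 libraries. Over all genes tested, W4 lay at a log2 CPM distance of 91.8 to 95.7 from W1 to W3 and of 24.8 to 44.6 from the rd10 libraries, while W1 to W3 lay 19.9 to 30.2 apart. The label was kept, and each test of a gene or gene list in rd10 DMSO or HAL against WT is given with and without W4 or said to leave it out. Totals were 15512212 (D3) to 38160436 (D2) counts on genes. The tissue label was borne out by the cone and Muller glia lists, at 1462 to 2089 and 3978 to 7650 CPM summed per library, while the rod list of 10 genes fell from 69548 to 73478 CPM in W1 to W3 to 3345 to 10385 in the rd10 libraries.

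The promoters of 3 genes are shown because 2 of them rose in rd10 DMSO libraries relative to W1 to W3 and the third did not. They are the 250 bases before the RefSeq start site on build GRCm38.p6, written in the direction of the gene, with matches to the motifs searched in capitals. C1qb lies on the minus strand at chr4:136886201-136886450, C3 on the minus strand at chr17:57228137-57228386 and Cd59a on the plus strand at chr2:104095551-104095800.
C1qb: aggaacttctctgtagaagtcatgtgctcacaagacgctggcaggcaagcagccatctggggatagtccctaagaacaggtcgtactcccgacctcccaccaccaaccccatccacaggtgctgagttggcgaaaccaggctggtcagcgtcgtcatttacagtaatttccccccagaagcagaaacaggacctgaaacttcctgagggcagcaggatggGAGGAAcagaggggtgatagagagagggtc
C3: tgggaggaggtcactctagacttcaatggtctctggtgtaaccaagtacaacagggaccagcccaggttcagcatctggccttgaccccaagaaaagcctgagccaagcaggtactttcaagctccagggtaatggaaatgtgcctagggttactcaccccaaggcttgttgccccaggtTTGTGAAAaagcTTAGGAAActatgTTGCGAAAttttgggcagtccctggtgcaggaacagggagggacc
Cd59a: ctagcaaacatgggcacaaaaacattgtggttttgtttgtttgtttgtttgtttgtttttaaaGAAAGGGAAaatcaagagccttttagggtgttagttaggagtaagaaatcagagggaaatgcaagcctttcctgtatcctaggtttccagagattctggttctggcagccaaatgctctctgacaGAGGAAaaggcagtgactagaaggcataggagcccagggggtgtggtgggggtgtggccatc
RefSeq promoters were found for 5 of the 9 genes (C1qb, C1qc, C3, Cd59a and C1qbp), as windows of 250 bases before and 50 after the start site, and were searched on both strands. GAGGAA, the core that the macrophage factor PU.1 binds, occurred in C1qb starting at -30, in C1qc at -193 and in Cd59a at -62, and in 28.3% of all 32851 promoters of that length. TTNNGNAA, a loose form of the C/EBP site, occurred in C3 starting at -70, -58 and -45, and 3 or more matches stood in 3.601% of all promoters. C1qc at -81 and C1qbp at -168 held 1 match each to the same letters, as did 40.7% of promoters at least once. GAAANNGAA, an IRF-like motif, occurred in Cd59a at -187 and in 8.56% of promoters. TTCNNNGAA (STAT, 8.30% of promoters) and GGNNTTTCC (NF-kB, 5.82%) had no match in these 5 windows, and TATAAA (13.6%) had a match in C3 alone, 14 bases after the annotated start. These are matches of letters, and no binding was measured here. For C1qc the GENCODE transcript starts further upstream than the RefSeq one, so its positions depend on that choice.

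The first question was how the rd10 retina differs from WT. The genes of C1q were expressed at a low level in 3 of the WT libraries and at about the rd10 level in the library labelled W4. C1qa measured 3.94, 3.08 and 4.03 CPM in W1, W2 and W3, at 20.1 in W4, and at 24.5, 21.3 and 19.7 in D1, D2 and D3. C1qb measured 3.75, 3.38 and 4.08 CPM in W1 to W3, at 23.8 in W4, and at 28.2, 23.5 and 21.04 in D1 to D3. C1qc measured 3.79, 3.83 and 3.68 CPM in W1 to W3, at 17.6 in W4, and at 23.9, 16.6 and 14.1 in D1 to D3. For each of the 3 genes all rd10 DMSO libraries lay above W1 to W3, and W4 lay inside or near the rd10 range. The share of all genes whose groups do not overlap was not counted, here or in the comparisons below. Without W4, edgeR called 32.3% of all genes tested higher. Without W4 the 3 genes rose by close amounts, with log2 fold changes of 2.58 ± 0.15 (SE; adjusted p = 1.94e-05) for C1qa, 2.71 ± 0.15 (adjusted p = 1.69e-05) for C1qb and 2.28 ± 0.21 (adjusted p = 0.000101) for C1qc in edgeR's quasi-likelihood test with n = 3 and 3. In bulk RNA, fewer or more cells of a type and a different amount of RNA per cell cannot be told apart.

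**Figure D1:**
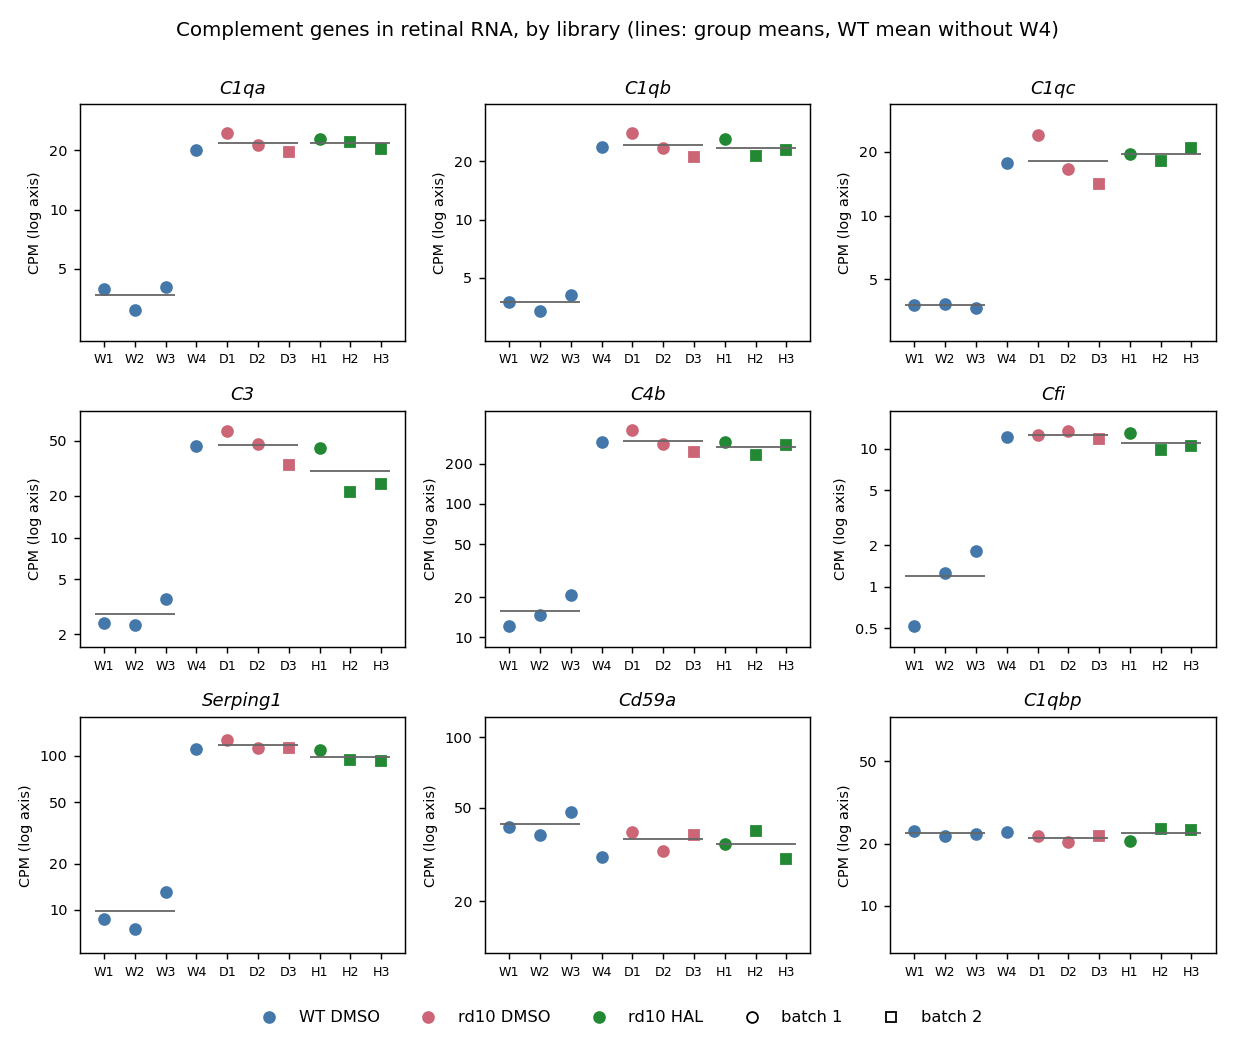
CPM of the 9 complement genes in each library on a log axis, with 1 panel per gene; circles are batch 1 and squares batch 2, and lines are group means (for WT, of W1 to W3). In 7 panels the library labelled W4 sits with the rd10 libraries, far above W1 to W3, while Cd59a and C1qbp stay within 30.4 to 48.1 and 20.4 to 23.6 CPM in all libraries.

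C3 and C4b, which encode the central opsonins of the cascade, had the largest differences of the 9. C3 measured 2.42, 2.32 and 3.62 CPM in W1 to W3, at 45.5 in W4, and at 58.7, 47.1 and 33.2 in D1 to D3. C4b measured 12.1, 14.7 and 20.7 CPM in W1 to W3, at 288.7 in W4, and at 354, 278.8 and 245 in D1 to D3. Neither gene's rd10 DMSO libraries overlapped W1 to W3. Without W4, C3 rose by a log2 fold change of 4.08 ± 0.26 (SE; edgeR adjusted p = 2.67e-05), a fold of 16.9, and C4b by 4.23 ± 0.22 (adjusted p = 1.59e-05), a fold of 18.7. By size of the log2 fold change C4b ranked 4 and C3 ranked 6 among the 11696 genes tested. C4b has a near-identical paralog, C4a, to which reads can be split. C4a stood at 2.44 to 4.65 CPM across all 10 libraries, far under C4b, and its log2 fold change was -0.15 ± 0.26 (edgeR adjusted p = 0.646, transcript counts summed per gene, without W4).

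Of the regulators, 2 rose without W4 and 2 did not pass the test. Serping1, which encodes the C1 inhibitor that blocks the proteases bound to C1q, measured 8.78, 7.46 and 13.1 CPM in W1 to W3, at 110 in W4, and at 128, 113 and 112 in D1 to D3, above all 4 WT libraries. Cfi encodes the protease that inactivates the deposited fragments of C3 and C4, and measured 0.522, 1.26 and 1.81 CPM in W1 to W3, at 12.2 in W4, and at 12.6, 13.4 and 11.7 in D1 to D3. For both genes D1 to D3 lay close to each other and above W1 to W3. Without W4 the log2 fold change was 3.61 ± 0.19 (SE; edgeR adjusted p = 1.57e-05) for Serping1 and 3.43 ± 0.34 (adjusted p = 0.000128) for Cfi, whose WT levels rest on 11, 25 and 31 counts. Cd59a, which encodes a membrane protein that stops the terminal pore, measured 41.3, 38.3 and 48.1 CPM in W1 to W3, at 30.8 in W4, and at 39.6, 32.6 and 38.1 in D1 to D3. C1qbp encodes a protein found mainly in mitochondria that was first described as a binder of C1q, and measured 23.1, 21.8 and 22.2 CPM in W1 to W3, at 22.8 in W4, and at 21.7, 20.4 and 21.7 in D1 to D3. The Cd59a groups overlapped, and D1 to D3 of C1qbp lay narrowly under all WT libraries. Without W4 the log2 fold change was -0.20 for Cd59a (95% confidence interval -0.46 to 0.06, edgeR adjusted p = 0.154) and -0.06 for C1qbp (-0.23 to 0.10, adjusted p = 0.470).

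As labelled, with all 4 WT libraries, edgeR called 0 of the 9 genes in rd10 DMSO against WT, and 0% of the 11698 genes tested. At an unadjusted p under 0.05 there were 3108 genes and 0 of the 9, DESeq2 called 589 genes and 0 of the 9, and limma-voom called 0 genes. The count of the 9 at an unadjusted p under 0.05 depended on the tool, with 0 by edgeR, 3 by DESeq2, 7 by limma-voom and 7 by limma on the deposited CPM. The log2 fold changes of the 7 genes above were then 1.32 to 1.80 with SEs of 0.62 to 1.14 and edgeR adjusted p of 0.189 to 0.270. Without W4, edgeR called 7 of the 9 genes, all higher, against 62.2% of the 11696 genes tested in either direction and 32.3% in the higher direction, so calls were frequent among all genes. The median log2 fold change of all genes in that comparison was -0.01. The exact permutation test over libraries can give no p under 0.1 for 3 against 3 libraries, and gave 0.1 for each of the 7 genes without W4. Within batch 1 alone and without W4, with n = 2 and 3, edgeR again called the 7 genes higher. There too the WT and rd10 libraries carry different set names, so this fit does not part genotype from set. Their log2 fold changes were 2.43 (C1qc) to 4.34 (C4b). In that fit 72.3% of the 11698 genes tested were called in either direction and 36.5% in the higher direction.

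**Figure D2:**
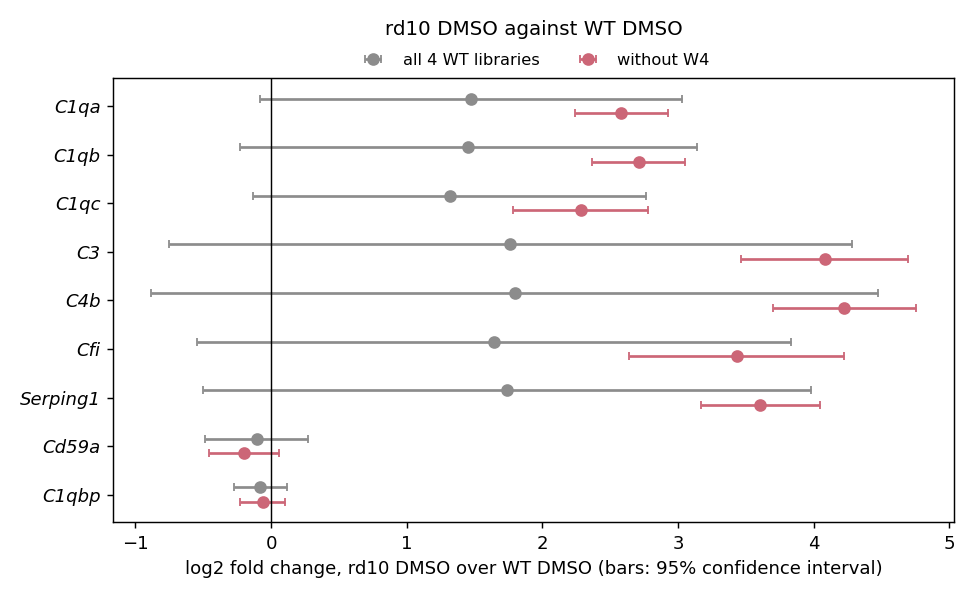
Log2 fold change of each complement gene in rd10 DMSO over WT DMSO, with 95% confidence intervals from edgeR's quasi-likelihood test, grey with all 4 WT libraries and red without the library labelled W4. The red intervals of 7 genes lie wholly above 0 while all grey intervals include 0, and for Cd59a and C1qbp both intervals include 0.

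Levels of different genes were compared as CPM per kilobase of transcript. In W1 to W3 the 2 genes that did not pass the test led, with Cd59a at 25.5 ± 2.99 (SD, n = 3) and C1qbp at 20.2 ± 0.31 CPM per kb, above Serping1 at 5.73 ± 1.77. C1qa, C1qb and C1qc followed at 3.54 ± 0.51, 3.43 ± 0.32 and 3.13 ± 0.07, and C4b at 3.04 ± 0.87, and these 4 did not differ beyond their spread. Cfi and C3 were lowest at 0.576 ± 0.31 and 0.561 ± 0.13 CPM per kb. In rd10 DMSO libraries the order was another. Serping1 led at 68.1 ± 5.34 and C4b followed at 56.1 ± 10.8 CPM per kb, apart by little more than the SD of C4b. C1qb at 22.3 ± 3.34, Cd59a at 22.0 ± 2.30, C1qa at 21.02 ± 2.33, C1qbp at 18.6 ± 0.66 and C1qc at 15.2 ± 4.23 formed a middle group whose neighbours overlapped, and C3 at 9.04 ± 2.48 and Cfi at 6.27 ± 0.41 were lowest.

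Transcript counts were taken per gene through GENCODE M21. C1qa and C1qb each had 1 transcript. The main coding transcript carried 95.1% to 97.8% of C4b counts and 89.6% to 94.98% of Serping1 counts in all libraries. For C1qbp a transcript with a retained intron (C1qbp-202) took 16.1%, 23.2% and 21.1% of counts in W1 to W3, 17.1% in W4, 11.2%, 10.1% and 9.28% in D1 to D3 and 9.87%, 14.0% and 17.0% in H1 to H3. D1 to D3 lay under all WT libraries in this share, and the HAL libraries overlapped both. A short coding transcript of Cfi (Cfi-202) took 0% in W1 to W3, 3.39% in W4, 4.30% to 6.10% in D1 to D3, and 2.47%, 0% and 1.23% in H1 to H3. WT totals in W1 to W3 were 31 counts or fewer per library, where a share of that size would be no more than a few counts. These shares are given as values, without a test.

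Markers of the cells that are known to make these proteins moved with the genes. All of the 16 microglial markers were called higher in rd10 DMSO without W4, with a median log2 fold change of 1.95. Of these, Aif1 passed the filter on low counts through the rd10 libraries alone, so its call is no test. Aif1 was at 0.14 to 0.47 CPM in W1 to W3 and at 1.29 to 1.68 in D1 to D3. The summed level of the markers was 62.4 to 67.7 CPM in W1 to W3, 226 in W4, 218 to 246 in D1 to D3 and 215 to 231 in H1 to H3. Every one of the 9 Muller glia markers was called higher, with a median of 1.02 and summed levels of 3978 to 4125 CPM in W1 to W3 and 6200 to 7551 in D1 to D3. Also called higher were the 10 genes of reactive gliosis, with a median of 2.70 and summed levels of 308 to 365 CPM in W1 to W3 and 1635 to 1781 in D1 to D3. The 10 rod genes were all called lower, with a median of -3.25. These calls rest on leaving W4 out. With all 4 WT libraries the same fit called 0 of the 16 microglial, 9 Muller glia, 10 gliosis and 10 rod genes, with medians of 1.086, 0.64, 1.62 and -2.86, and called 0 genes higher and 1 lower among 17660 tested. Without W4, in this fit of transcript counts summed per gene, 26.9% of all genes were called higher and 25.5% lower. Among the other lists, also without W4, 4 of 9 vessel genes, 4 of 9 pigment epithelium genes, 2 of 4 monocyte and macrophage genes tested and 1 of 2 liver and plasma genes tested were called higher, and 4 of 5 blood genes lower. The monocyte and macrophage list summed to 1.91 to 4.32 CPM in W1 to W3 and 12.1 to 32.9 in D1 to D3. Its genes may thus have passed the filter through the rd10 libraries alone. Of the cone list 2 of 9 genes were called higher and 2 lower, and of the lens list 1 of 3 tested was called higher. The part of each cell type in the levels of the complement genes was not tested.

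Relative to the microglial markers the genes parted. The log2 ratio of summed C1qa, C1qb and C1qc to the 16 summed markers was -2.56 ± 0.04 (SD, n = 3) in W1 to W3, -1.88 in W4, -1.87 ± 0.16 in D1 to D3 and -1.81 ± 0.05 in H1 to H3. It was thus 0.69 higher in D1 to D3 than in W1 to W3, and 0.52 higher when W4 was included. This value depended on the marker and was highest against P2ry12. The same difference for the whole list was 2.23 for C3, 2.41 for C4b, 1.81 for Serping1 and 1.75 for Cfi, against -2.03 for Cd59a and -1.89 for C1qbp. So C1q, C3, C4b, Serping1 and Cfi all differed from WT by more than the summed list, C1q by the least. Against single markers, the C1q difference was 0.28 to 1.397 for 13 of the 16, 0.00 for Ctss, 0.01 for Laptm5 and -0.36 for Fcrls.

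**Figure D3:**
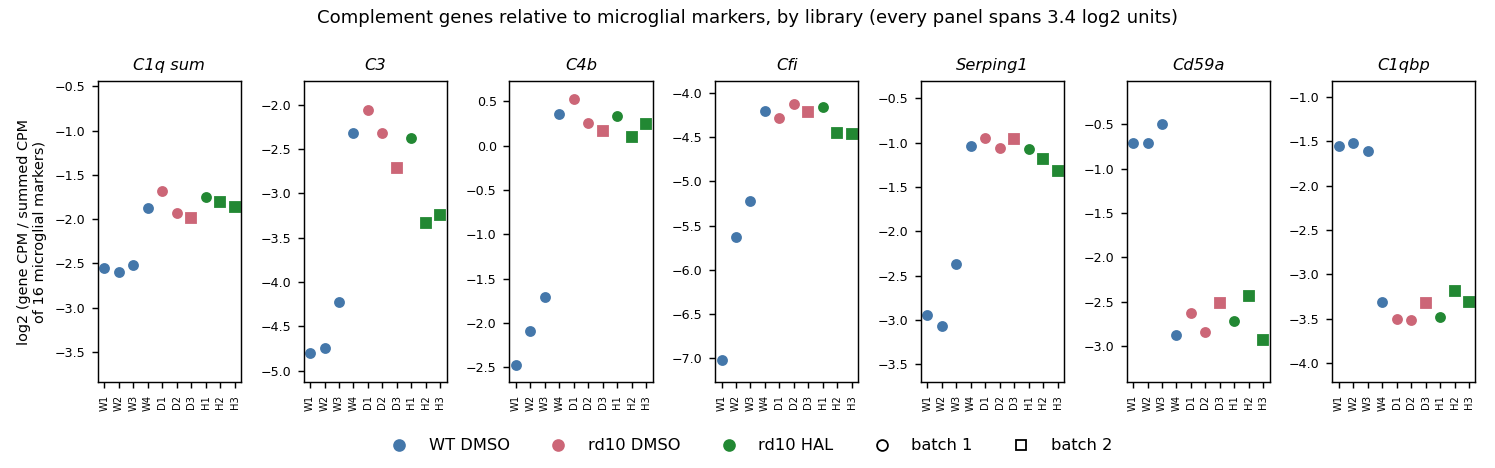
Log2 ratio of complement gene CPM to the summed CPM of 16 microglial markers in each library, every panel spanning the same range; circles are batch 1 and squares batch 2. The C1q sum moves from -2.56 in W1 to W3 to -1.87 in D1 to D3, C4b moves by 2.41 and Cd59a by -2.03.

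The genes whose pattern was most like these were named by Pearson correlation of log2 CPM over the 10 libraries. In these patterns W1 to W3 lie apart from W4 and the rd10 libraries. This split sets most of each value, so r is a description. For the mean of C1qa, C1qb and C1qc the most alike were Sardh (r = 0.998), Ahnak, Mras, Dock1 and Timp2, and 93 genes had r over 0.99. For C3 they were Glis2 (r = 0.997), Tmem132b, Gfra1, Hsp90ab1 and Csrnp3, with 23 genes over 0.99. For C4b they were Clu (r = 0.999), Fgfr1, Cp, Spon1 and Dock1, with 92 genes over 0.99. Clu encodes clusterin, an inhibitor of the terminal pore, and Cp encodes ceruloplasmin, an acute-phase protein of glia.

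The rest of the cascade was read from a list of 57 further complement genes, using gene sums of the transcript table because the gene table held 14 of them. Without W4, 32 of them were tested in rd10 DMSO against WT, of which 19 were called higher and 2 lower, while 26.9% of all 17324 genes tested were called higher. Cfb, C3ar1, C5ar1, Itgax and Cd55 passed the filter on low counts through the rd10 libraries alone, 4 of them called higher, so they are given as levels with no test. Of the other 27 genes 15 were called higher and 2 lower. With all 4 WT libraries 0 of the 34 genes tested were called in either direction. Proteases of the classical pathway were among those called, with C1ra higher by a log2 fold change of 2.67 ± 0.24, C1s1 by 1.38 ± 0.29 and C2 by 2.17 ± 0.63 (SE; edgeR adjusted p = 0.000107, 0.00481 and 0.0217). With W4 these were 1.44, 1.01 and 1.58 (adjusted p = 0.224, 0.205 and 0.206). C2 was uneven, at 10.02, 2.02 and 11.6 CPM in D1 to D3. Cfb, the protease of the alternative pathway, was at 0 to 0.292 CPM in W1 to W3, at 3.603 in W4 and at 2.31 to 5.37 in D1 to D3. Cfp, which encodes properdin, the stabiliser of that pathway, was at 22.6 to 25.6 CPM in W1 to W3 and 25.4 to 26.6 in D1 to D3, with a log2 fold change of 0.11 ± 0.08 (edgeR adjusted p = 0.300).

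Among receptors and without W4, Itgam rose by a log2 fold change of 1.77 ± 0.15 and Itgb2 by 2.50 ± 0.30 (SE; edgeR adjusted p = 9.18e-05 and 0.000375), against 1.15 and 1.27 with W4 (adjusted p = 0.205 and 0.260). C3ar1, the receptor for the C3a peptide, measured 0.36 to 0.93 CPM in W1 to W3, 3.16 in W4 and 1.11 to 4.18 in the rd10 libraries. C5ar1 measured 0.047 to 0.29 CPM in W1 to W3 and 0.43 to 1.15 in the rd10 libraries, and Itgax 0 to 0.095 and 0.70 to 1.74. Lrp1, Cd93 and the membrane proteins Csmd1, Csmd2, Csmd3, Susd4, Cd46 and Cr1l were called higher without W4 with log2 fold changes of 0.46 (Cr1l) to 1.31 (Csmd2). Of the fluid-phase regulators, Clu rose by 1.80 ± 0.12, and the 2 genes called lower were Vtn at -2.79 ± 0.19 and C4bp at -0.997 ± 0.25 (edgeR adjusted p = 2.74e-05, 3.78e-05 and 0.0105). With W4 these were 1.11, -2.42 and -0.75 (adjusted p = 0.206, 0.205 and 0.248). Vtn, which encodes vitronectin, was at 832 to 886 CPM in W1 to W3, at 82.4 in W4 and at 98.9 to 168 in D1 to D3. The terminal components C6, C7, C8b, C9 and Hc (which encodes C5) were each under 0.7 CPM in every library, C8g was at 0.50 to 0.81 CPM and C8a at 1.34 to 2.71 CPM, and Cfd, Mbl1 and Mbl2 had 0 counts in all 10 libraries.

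**Figure D4:**
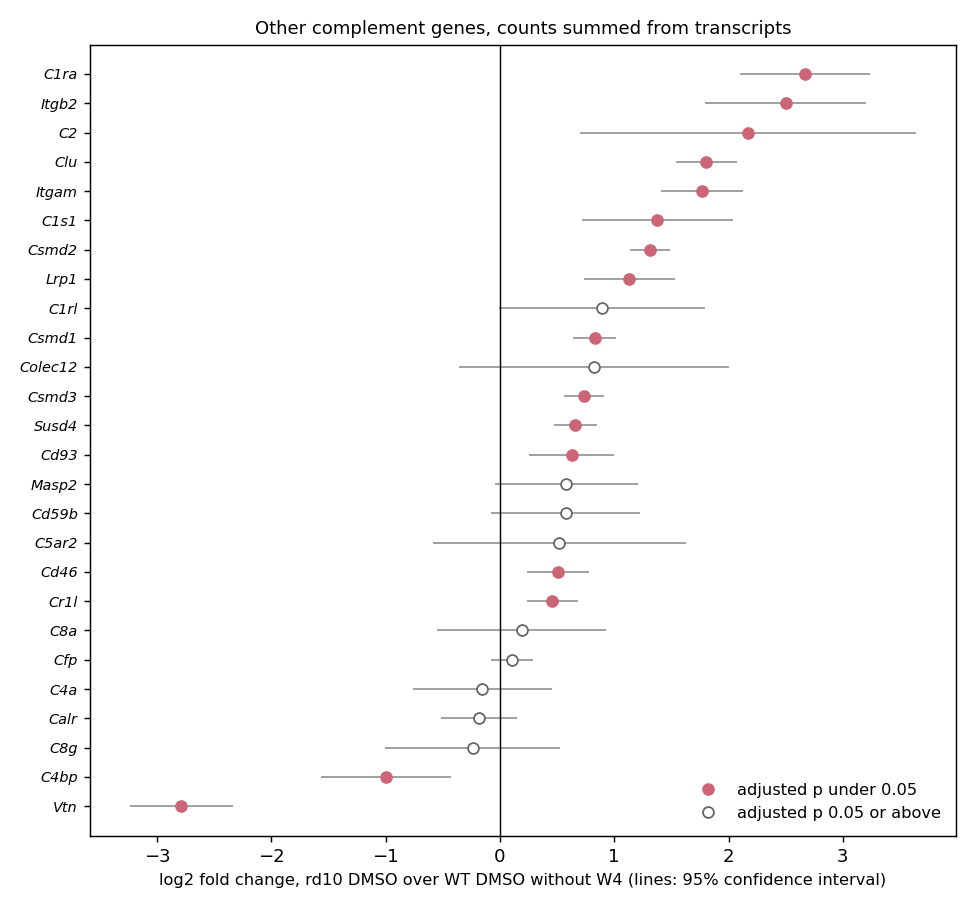
Log2 fold change of further complement genes that also passed the low-count filter in WT, tested in rd10 DMSO over WT DMSO without the library labelled W4, with 95% confidence intervals, from transcript counts summed per gene; filled points have an edgeR adjusted p under 0.05. Filled points lie to the right of 0, up to C1ra at 2.67, apart from 2 to the left, C4bp at -0.997 and Vtn at -2.79.

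The second question was whether halofantrine changed these genes in the rd10 retina. None of the 9 passed the test. C1qa was at 22.9, 22.0 and 20.3 CPM in H1, H2 and H3, inside the range of D1 to D3, and its log2 fold change was -0.01 (95% confidence interval -0.25 to 0.23). C1qb at 26.2, 21.2 and 22.8 CPM gave -0.06 (-0.36 to 0.25), and C1qc at 19.5, 18.1 and 20.8 CPM gave 0.09 (-0.35 to 0.53). C4b was at 291, 229.7 and 273 CPM, with -0.15 (-0.49 to 0.20). For each of these 4 genes the HAL and DMSO libraries overlapped.

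C3 and Serping1 had the lowest unadjusted p of the 9 genes in this comparison. C3 was at 44.5, 21.3 and 24.4 CPM in H1 to H3 against 58.7, 47.1 and 33.2 in D1 to D3, a log2 fold change of -0.63 (95% confidence interval -1.36 to 0.10, exact permutation p = 0.2, edgeR adjusted p = 0.883). H1 of batch 1 lay among the DMSO libraries, and H2 and H3 of batch 2 lay under all of them. Without H1 the log2 fold change of C3 was -1.03, and without D1 it was -0.42. Serping1 was at 110, 94.6 and 92.9 CPM in H1 to H3 against 128, 113 and 112 in D1 to D3, with no overlap, a log2 fold change of -0.25 (-0.46 to -0.04, edgeR adjusted p = 0.883, unadjusted 0.0275) and an exact permutation p of 0.1, the smallest that 3 against 3 can give. Cfi at 12.9, 9.80 and 10.5 CPM gave -0.19 (-0.51 to 0.13), Cd59a at 35.05, 39.7 and 30.4 CPM gave -0.07 (-0.35 to 0.21), and C1qbp at 20.6, 23.6 and 23.3 CPM gave 0.08 (-0.11 to 0.28). Over all genes edgeR called 0% of 11692, with 557 genes and 1 of the 9 (Serping1) at an unadjusted p under 0.05, while DESeq2 called 3 genes and 0 of the 9 and limma-voom called 0. Without D1 edgeR called 1 gene and without D2 it called 7, none of them among the 9. Beside these values, the summed reactive gliosis genes measured 1423 to 1625 CPM in H1 to H3 and 1635 to 1781 in D1 to D3, with no overlap, a median log2 fold change of -0.20 and 0 of 10 called. The pigment epithelium genes measured 776, 535 and 542 CPM in H1 to H3 and 675 to 1042 in D1 to D3, with a median of -0.74 and 0 of 9 called, and the microglial markers 215 to 231 and 218 to 246 CPM. Their part in the values of C3 and Serping1 was not tested.

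Treatment and batch were unevenly crossed, since batch 1 held 2 DMSO libraries with 1 HAL library and batch 2 the reverse. Once batch was added to the fit, C3 stood at -0.39 ± 0.12 (SE of the log2 fold change; edgeR adjusted p = 0.269) and Serping1 at -0.19 ± 0.07 (adjusted p = 0.269). In that fit 0 of 11698 genes were called by edgeR, and 1943 genes, among them these 2 of the 9, had an unadjusted p under 0.05. Within batch 1 the log2 CPM of C3 in HAL minus DMSO was -0.24, and within batch 2, where the set names also differ, it was -0.54. For Serping1 the within-batch differences were -0.13 and -0.26, for Cfi -0.01 and -0.21, for Cd59a -0.04 and -0.13, for C4b -0.11 and 0.03, and for C1qbp -0.03 and 0.11. C1qa gave 0.00 and 0.10, C1qb 0.02 and 0.06 and C1qc -0.03 and 0.46. The interaction of halofantrine and batch passed the test for none of the 9, with edgeR adjusted p of 0.431 (C1qc) to 0.926 (C1qb). Among the wider complement list, edgeR called 0 of 34 genes tested and 0% of all 17891 genes.

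Retinas of HAL-treated rd10 mice were also set beside WT, with the same WT libraries as above. With all 4 WT libraries edgeR called 0 of the 9 genes and 0.00855% of the 11699 genes tested, which is 1 gene, while 4050 genes and 0 of the 9 had an unadjusted p under 0.05, DESeq2 called 2221 genes and 0 of the 9 and limma-voom called 0. The number of the 9 with an unadjusted p under 0.05 was 2 by DESeq2, 6 by limma-voom and 6 by limma on the deposited CPM. The log2 fold changes with W4 were 1.46 ± 0.67 (SE) for C1qa, 1.403 ± 0.72 for C1qb, 1.41 ± 0.60 for C1qc, 1.14 ± 1.098 for C3, 1.65 ± 1.15 for C4b, 1.46 ± 0.95 for Cfi and 1.49 ± 0.97 for Serping1, with edgeR adjusted p of 0.146 (C1qc) to 0.425 (C3), and -0.17 ± 0.16 for Cd59a (adjusted p = 0.416). Without W4, 7 of the 9 were called higher, against 35.7% of all 11699 genes. The log2 fold changes were then 2.56 ± 0.12 (SE) for C1qa, 2.65 ± 0.12 for C1qb, 2.37 ± 0.10 for C1qc, 3.44 ± 0.32 for C3, 4.08 ± 0.17 for C4b, 3.23 ± 0.32 for Cfi and 3.35 ± 0.17 for Serping1, with edgeR adjusted p of 7.26e-07 (C4b) to 2.48e-05 (Cfi). Cd59a was lower by a log2 fold change of -0.28 ± 0.11 (adjusted p = 0.0525), and by -0.30 ± 0.11 (adjusted p = 0.0418) from transcript counts summed per gene. C1qbp was at 0.01 ± 0.08.

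The last comparison was between the batches among the 6 rd10 libraries, with treatment as a term. C3 was the one gene of the 9 called. It was at 58.7, 47.1 and 44.5 CPM in D1, D2 and H1 of batch 1 and at 33.2, 21.3 and 24.4 in D3, H2 and H3 of batch 2, with no overlap. The log2 fold change of batch 2 over batch 1 was -0.82 ± 0.12 (SE; edgeR adjusted p = 0.0139), a value larger in size than that of HAL over DMSO for the same gene, though the difference between them was not tested. Of all 11698 genes 4.63% were called, 1.55% in the lower direction. Without D3 the call of C3 was lost at a log2 fold change of -0.96, and 91 genes were called in place of 542. Without H1 it stayed called at -0.67 and 2638 genes were called, and without D1, D2, H2 or H3 it stayed called while 216, 212, 216 and 217 genes were called.

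The other genes moved less between batches. C1qb, C4b and Cfi also lay lower in batch 2 with no overlap, and C1qbp lay higher. For each of these the exact permutation p was 0.1, as for C3. C1qb was at -0.27 ± 0.10 (SE), C4b at -0.29 ± 0.11, Cfi at -0.26 ± 0.11 and Serping1 at -0.17 ± 0.07, with unadjusted edgeR p of 0.0247 to 0.0462 and adjusted p of 0.128 to 0.175. C1qa at -0.16 ± 0.09, C1qc at -0.25 ± 0.18, Cd59a at 0.04 ± 0.13 and C1qbp at 0.12 ± 0.08 had unadjusted p of 0.117 to 0.771. Without H1 the value of C1qc was -0.52, and without D3 it was -0.0063. The rod list was called higher in batch 2 in 10 of 10 genes, with a summed level of 3345 to 3674 CPM in batch 1 and 7168 to 10385 in batch 2, and the blood list was at 12.7 to 32.8 and 30.6 to 104 CPM. The summed microglial markers were at 231 to 246 CPM in batch 1 and 215 to 231 in batch 2, with 0 of 16 called. In batch 2, 1 gene each of 9 Muller glia, 10 gliosis, 9 vessel and 9 pigment epithelium genes was called lower and 1 of 9 cone genes higher. The summed Muller glia level was 6832 to 7551 CPM in batch 1 and 6200 to 7650 in batch 2, and that of gliosis 1625 to 1718 and 1423 to 1781. The part of these in the difference of C3 was not tested. Of the wider list, 35 genes were tested and 2 were called, Vtn higher by 0.69 ± 0.08 (edgeR adjusted p = 0.00723) and Lrp1 lower by -0.44 ± 0.07 (adjusted p = 0.0323), against 1.97% of all genes.

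**Figure D5:**
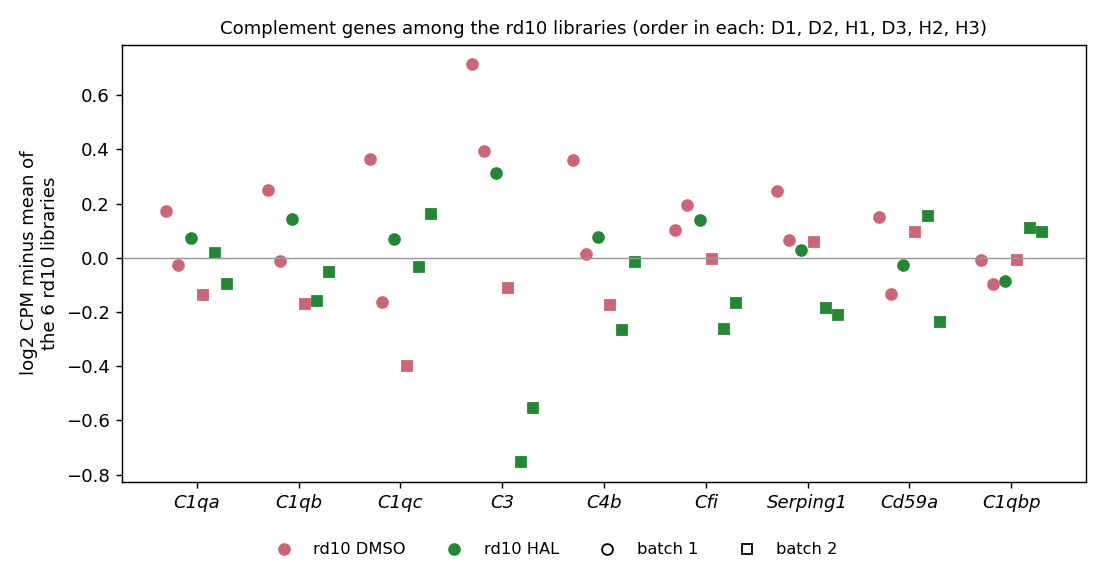
Log2 CPM of the 9 complement genes in the 6 rd10 libraries, each minus the gene's mean over those libraries; red is DMSO, green is HAL, circles are batch 1 and squares batch 2. For C3 all 3 squares lie under all 3 circles, and within each batch the DMSO libraries lie above the HAL libraries. The squares also lie under the circles for C1qb, C4b and Cfi, and above them for C1qbp. For Serping1 the DMSO libraries also lie above the HAL libraries within each batch. The libraries of the genes other than C3 spread by less.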

How the data were processed

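Retinal RNA of 10 female mice was sequenced as stranded poly(A) libraries. The authors pseudoaligned reads with Kallisto to mouse transcripts and imported them with tximport, and the submitters' processing notes name kallisto, edgeR, limma and the build GRCm39; tool versions are not given in the sources used here. The authors deposited estimated counts per transcript (275112) and per gene (11702, filtered by a rule that is not stated, 51.4% of values whole), and a CPM table, which is a signal of counts divided by 1 factor per library. Their table of the HAL comparison holds fold changes and p-values and was not used.

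Estimated counts were rounded and tested between groups with glmQLFTest, the quasi-likelihood test in edgeR 4.0.16 (R 4.3.3) with filterByExpr, TMM scaling and Benjamini-Hochberg adjustment over all genes, called at an adjusted p under 0.05. CPM values printed use TMM factors; log2 CPM used a prior count of 2. Symbols matched 11492 genes. Transcripts were summed per gene through GENCODE M21, which held 97.4% to 97.7% of counts. Libraries were numbered in accession order within groups. The genes, lists and tests were chosen with earlier results of these data known. Genes named were the 9 members, called genes of the wider list, Pde6b, and the 5 most correlated genes per pattern; some items the rule takes are not reported here, and other genes were named from the lists after their values were seen. Alternatives were DESeq2 1.42.0, limma-voom (limma 3.58.1), limma on log2 of the deposited CPM plus 1, other scalings and filters, all 10 libraries, a batch term, batch 1 alone and leaving out each library; the transcript sums and the interaction were added after seeing the data. On simulated counts of the HAL comparison edgeR recovered 52.0% of genes changed by a fold of 1.5 and 97.0% at a fold of 2. The 200 genes changed all had a mean over 5 CPM, and no batch difference was simulated. These rates need not hold for the real comparison. Chi-square per gene was 4.48 to 431 for pairs within a group, and no pair was treated as copies. Exact permutation tests were two-sided.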

Additional observations from a re-analysis of the deposited data

Results flagged for a closer look

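The library labelled W4 stood apart from the other WT libraries in 7 of the 9 complement genes, with a gap to the nearest WT library of 0.890 (Cfi) to 0.989 (C1qc) of the group's whole range, over Dixon's 95% critical value for 4 samples. Its levels were 20.1 CPM for C1qa, 23.8 for C1qb, 17.6 for C1qc, 45.5 for C3, 288.7 for C4b, 12.2 for Cfi and 110 for Serping1. Chance alone marks about 1 in 20 groups, and these 7 genes come from 1 library. Its Pde6b level of 93.1 CPM was likewise apart. For Cd59a the gap of W4 (0.433) did not pass the limit. For C1qbp the library furthest apart was W2, and its gap (0.270) did not pass either. The cause was not tested.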

How the results depend on the processing

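No paired analysis was possible because the replicate numbers were given in accession order and pair no libraries across groups. In rd10 DMSO against WT, the number of genes called was 0 as labelled, 589 by DESeq2, 1 from transcript sums, 9078 from transcript sums without W4, and 8460 in batch 1 without W4, and the number of the 9 genes called was 7 and 7 in the last 2. Leaving out each library in turn gave 0 to 7280 genes and 0 to 7 of the 9, the high values without W4. In HAL against WT, the counts were 1 as labelled, 2221 by DESeq2, 0 by limma-voom, 0 by limma on the deposited CPM, 0 with all 10 libraries, 10679 from transcript sums without W4 (8 of the 9, with Cd59a lower), and 0 to 8408 genes and 0 to 7 of the 9 without each library. HAL against DMSO gave 3 genes by DESeq2 and 0 to 7 without each library, always 0 of the 9. Between batches DESeq2 called 1419 genes, 218 were called without the treatment term, and 91 to 2638 without each library, with 0 to 1 of the 9.

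With a batch term the HAL values of C1qa and C1qb turned to 0.047 and 0.042. C1qbp in HAL against WT was -0.0057 on the deposited CPM, -0.016 from transcript sums and -0.013 from those without W4. Without each library, values crossed 0 for C1qa (-0.071 to 0.081), C1qb (-0.14 to 0.070), C1qc (-0.047 to 0.34), C4b (-0.25 to 0.018) and Cd59a (-0.17 to 0.029) in HAL against DMSO, Cd59a in rd10 DMSO against WT (-0.20 to 0.0034), C1qbp in HAL against WT (-0.028 to 0.061) and Cd59a between batches (-0.045 to 0.13). The C1q ratio to microglial markers was -0.36 to 1.397 over single markers and 0.52 with W4. Within a batch, the HAL minus DMSO value had the other sign from the value over both for C1qa in both batches (0.00 and 0.10), C1qb in both (0.02 and 0.06), C4b in batch 2 (0.03), and C1qc and C1qbp in batch 1 (-0.03 and -0.03). All other fitted values of the 9 genes kept their direction, and 7 genes passed the threshold against WT in each alternative without W4. The cause was not tested. Counts limit Cfi in W1 to W3 most.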
